A study of Daphnia magna with 24 samples.

Results

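Water labelled Greenhorn Mine downstream 1 was tested on Daphnia magna, a freshwater crustacean, in 3 exposures, and each exposure was read on 2 dye-swap arrays. These 6 arrays, of 24 in the series, were chosen by that label alone. In each exposure 10 to 15 adult females, 14 to 16 days old and from a genetically homogeneous culture, were held in the site water for 24 h at 23.5 °C and then pooled. The other exposed groups were treated alike in water labelled entry, downstream 2 and upstream, with 3 exposures and 6 arrays each. The control shared by all 4 groups was unexposed animals of the same culture in COMBO, a defined laboratory medium. The design text describes the sites as differing in copper, without giving amounts. Per the labels, each array set exposed RNA in one dye against control RNA in the other. Exposed RNA was in Cy5 on the first array of an exposure and in Cy3 on the second. Whether one batch of control RNA served several arrays was not given, nor whether the 3 exposures came from separate cultures. The p-values against control and between sites therefore measure only the spread between exposures, pooled over the 4 sites unless stated. The test between exposures used the spread between dye-swap arrays instead. If one control RNA served all exposures, the tests against control leave out the control's own spread.

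Daphnia magna reproduces without males under good conditions and is a standard animal for testing water quality. Adult females moult repeatedly and carry embryos in a brood chamber, so RNA from whole animals mixes adult tissues with any brood present. Copper is an essential cofactor of several enzymes and in excess is toxic to freshwater crustaceans, in part by disturbing sodium uptake. Metallothioneins, small cysteine-rich proteins, bind copper in many animals. The 7680 spotted features carry plate-type IDs that begin with A or P, and none of them matched a gene in the annotation table used here. Features are therefore given by ID, with no gene name or role, and no tissue or metal-response marker could be checked.

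All values below are deposited log ratios, read as log2, centred on each array's median and averaged over the dye-swap arrays of an exposure. A value of 1 is a 2-fold difference if the base is 2, which was not stated. The sign most likely gives exposed over control, because the design sets field exposures against the control, but the direction was not stated either, so values are described as positive or negative. The 6 downstream 1 arrays held values for 7131 to 7362 features each, with 4.14% to 7.15% missing. Their deposited medians lay between -0.0117 and 0.00787 and their SDs between 0.451 and 0.562. The files give no spot intensities, so precision could not be set against signal strength, and the number of arrays is 1 known limit on it. Of the 7680 features, 6380 had a value on all 6 arrays and 30 on none. A feature was tested where at least 2 of 3 exposures at every site had a value, which 7388 did.

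Array correlations held both the exposure and the dye. Across features, both arrays of one exposure correlated at r = 0.527 in exposure 1, 0.527 in exposure 2 and 0.599 in exposure 3. Arrays of different exposures correlated at 0.453 to 0.657 with exposed RNA in the same dye. With exposed RNA in opposite dyes they correlated at 0.134 to 0.406. Same-dye arrays of different exposures were thus about as alike as both arrays of one exposure. After averaging, exposures 2 and 3 correlated at 0.612, exposures 1 and 2 at 0.416 and exposures 1 and 3 at 0.438. These correlations run over features, which are not independent replicates. The median SD between exposures was 0.151 at downstream 1, against 0.174 at entry, 0.205 at downstream 2 and 0.259 at upstream.

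The question of the first comparison was which features differed between animals in downstream 1 water and animals in COMBO. Against the laboratory control, 237 of 7388 features (3.21%) passed an adjusted p of 0.05 (limma over all 12 exposures, Benjamini-Hochberg). Of these, 158 were positive and 79 negative. The unadjusted p was under 0.05 for 1010 features, and the lowest adjusted p was 1.0e-06. The median size among the 237 was 0.96, and the smallest was 0.26. In RNA from pooled whole animals, fewer cells of a type and less RNA per cell cannot be told apart. Fitted on the 3 downstream 1 exposures alone, without the spread of the other sites, the same test called 9 features, 1 positive and 8 negative. Leaving out exposure 1, 2 or 3 of downstream 1 left 120, 79 and 103 calls.

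The called features were alike on single arrays as well. Of the 148 positive features with 6 values, 142 were above 0 on all 6 arrays. Of the 72 negative features with 6 values, 71 were below 0 on all 6. The 17 called features with fewer values had one sign on every array that measured them. The positive features had median log ratios of 0.82, 0.89 and 0.89 in exposures 1 to 3, and a median SD between exposures of 0.200. The negative features had medians of -0.83, -1.15 and -1.07, and a median SD of 0.276. These signs and medians follow from the test that chose the features and are a description of them.

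Positive and negative features differed in how their sizes were spread. Of the 158 positive features, 39 lay at or under 0.5, 52 between 0.5 and 1, 36 between 1 and 1.5, 9 between 1.5 and 2, and 22 above 2. Of the 79 negative features, 8 lay within 0.5 of 0, 25 between 0.5 and 1 in size, 35 between 1 and 1.5, 9 between 1.5 and 2, and 2 beyond 2. The positive side thus had a long upper tail that the negative side lacked. Only 2 positive means fell between 2 and 2.5, with 5 between 2.5 and 3 and 15 between 3 and 4.

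**Figure D1:**
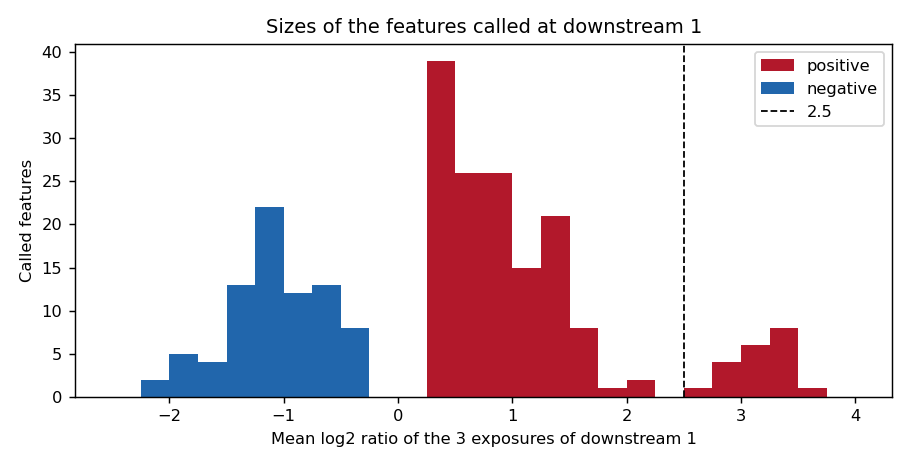
Number of called features (y axis) by mean log2 ratio of the 3 downstream 1 exposures against control (x axis), with positive and negative features in separate colours and a dashed line at 2.5. The 20 features above 2.5 stand to the right of a thinly filled stretch between 2 and 2.5, and no negative feature lies beyond -2.23.

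The feature with the largest positive mean was P4CB5. On the exposed-in-Cy5 and exposed-in-Cy3 arrays it had 2.71 and 2.25 in exposure 1, 4.20 and 3.89 in exposure 2, and 4.70 and 3.96 in exposure 3. All 6 arrays were far above 0, and exposure 1 was the lowest on both dyes. Its mean was 3.62 ± 1.00 (SD, n = 3), 12.3-fold at base 2, with a 95% interval of 2.35 to 4.89 and an adjusted p of 0.0068 (limma). In the other waters P4CB5 averaged 4.11 ± 1.25 at entry, 3.69 ± 0.92 at downstream 2 and 0.82 ± 1.14 at upstream (SD, n = 3 each). The upstream exposures were 0.22, 0.09 and 2.14, and the first of these rests on the exposed-in-Cy3 array alone. In upstream exposure 3 the arrays disagreed, with 0.29 for exposed RNA in Cy5 and 3.98 for exposed RNA in Cy3, so on single arrays upstream overlapped downstream 1. The call on P4CB5 was lost without downstream 1 exposure 2 (mean 3.41) or exposure 3 (mean 3.26), with arrays scaled to equal spread (adjusted p = 0.056) and with downstream 1 fitted alone (adjusted p = 0.081).

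The second positive feature, P11CH10, had nearly the same profile. It had 2.44 and 2.15 in exposure 1, 4.00 and 3.95 in exposure 2, and 4.30 and 4.01 in exposure 3, in the same dye order. Again exposure 1 was the lowest and all arrays were above 2. The mean was 3.48 ± 1.02 (SD, n = 3), 11.1-fold at base 2, with an interval of 2.46 to 4.49 and an adjusted p of 0.0025 (limma). P11CH10 averaged 3.89 ± 1.24 at entry, 3.64 ± 0.62 at downstream 2 and 0.31 ± 0.13 at upstream. Its downstream 1 exposures did not overlap those of upstream, and its call was lost with downstream 1 fitted alone (adjusted p = 0.091).

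The most negative feature was P11CC4, and its exposures were close together. It had -2.08 and -2.65 in exposure 1, -1.87 and -2.50 in exposure 2, and -1.96 and -2.29 in exposure 3. In each exposure the exposed-in-Cy3 array was the lower one. The mean was -2.23 ± 0.13 (SD, n = 3), a 4.68-fold difference at base 2, with an interval of -2.52 to -1.93 and an adjusted p of 2.8e-05 (limma). P11CC4 averaged -2.01 ± 0.35 at entry, -2.54 ± 0.25 at downstream 2 and 0.17 ± 0.15 at upstream. It was called against control under every alternative tried, with means from -2.48 to -1.97.

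The next negative feature, P13DA2, was more spread. It had -1.27 and -2.80 in exposure 1, -2.31 and -3.62 in exposure 2, and -0.98 and -1.98 in exposure 3. All arrays were below 0, but the gap between the dyes was at least as wide as that between some exposures. The mean was -2.16 ± 0.75 (SD, n = 3), a 4.47-fold difference at base 2, with an interval of -3.18 to -1.14 and an adjusted p of 0.034 (limma). P13DA2 averaged -2.41 ± 0.95 at entry, -3.02 ± 1.08 at downstream 2 and 0.14 ± 0.64 at upstream. Without downstream 1 exposure 1, 2 or 3 its mean was -2.22, -1.76 or -2.50, and none of these was called. It was also not called without upstream exposure 3 (adjusted p = 0.056), with the exposure number as a block (0.051), on exposed-in-Cy5 arrays alone (mean -1.52, 0.055) or with downstream 1 fitted alone (0.12).

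**Figure D2:**
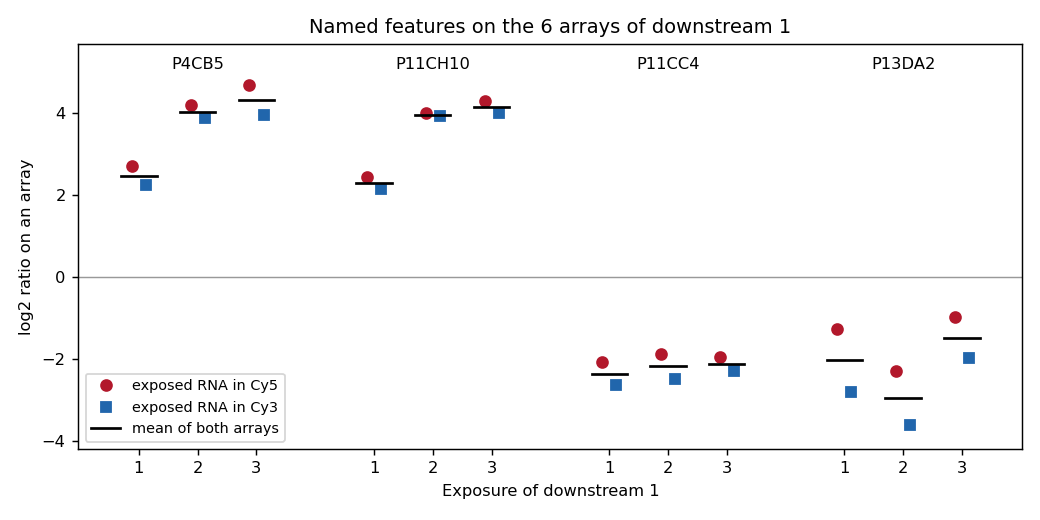
Log2 ratio (y axis) of P4CB5, P11CH10, P11CC4 and P13DA2 on each of the 6 downstream 1 arrays (x axis, exposure), with circles for exposed RNA in Cy5, squares for exposed RNA in Cy3 and bars for the mean of both arrays. P4CB5 and P11CH10 are lower in exposure 1 than in exposures 2 and 3, whereas P11CC4 lies between -2.65 and -1.87 on all 6 arrays.

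The lowest p-value did not belong to the largest change. A6E16 had means of -1.75, -1.84 and -1.79 in exposures 1 to 3, which averaged -1.79 ± 0.05 (SD, n = 3; adjusted p = 1.0e-06, limma). Its single arrays ran from -1.42 in exposure 1 with exposed RNA in Cy5 to -2.08 on the other array of that exposure. At entry A6E16 averaged -1.49 ± 0.15. Among the 237 called features, 52 had an SD between exposures under 0.1, 40 of them positive and 12 negative. Another 33 had an SD over 0.5, 26 positive and 7 negative. The median SD was 0.151 over all tested features, against 0.200 in the positive and 0.276 in the negative called features. How many of all tested features passed these SD bounds was not counted, so the counts only describe the called ones.

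The upper tail held 20 features with means above 2.5, a bound set after the values were seen. All 20 had values on all 6 arrays, and all had IDs that begin with P, in 11 of the 13 P blocks. Of the 7388 features tested, 4936 had IDs that begin with P. The smallest mean among them was 2.65, and the next lower positive feature stood at 2.25. At downstream 1 their median was 2.39 in exposure 1 (1.91 to 2.70), 3.59 in exposure 2 (2.96 to 4.05) and 3.73 in exposure 3 (3.07 to 4.33). Fitted on downstream 1 alone, 0 of them were called, so their calls rest on the spread estimated with the other sites. Exposure 1 was the lowest for 20 of 20, compared with 55 of the 137 other positive features with a value in all 3 exposures. Of the 33 called features with an SD over 0.5, 19 were in this class.

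By site mean, the same 20 features were high at entry and downstream 2 as well, and lower at upstream. The median of their site means was 3.24 at downstream 1 (2.65 to 3.62), 3.70 at entry (2.87 to 4.13), 3.49 at downstream 2 (2.74 to 3.69) and 0.29 at upstream (0.09 to 0.92). By exposure, their medians were 2.42, 4.71 and 3.95 at entry, 4.05, 2.80 and 3.44 at downstream 2, and 0.29, 0.16 and 0.30 at upstream. The lowest exposure was thus number 1 at downstream 1 and at entry and number 2 at downstream 2. Over the 9 exposures of the other sites, the 190 pairs correlated at a median r of 0.982 (0.917 to 0.998). Pairs of the other 138 positive features had a median r of 0.644. The means of those sites did not choose the features, but their spread entered the calls. Site means were left in, so r holds the gap between upstream and the other waters. That gap is wider in features chosen for large means, so r cannot tell a closer tie in this class from its size. The points share arrays, dyes and pooled animals, and whether different IDs in this class are copies of one transcript could not be read from the IDs.

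**Figure D3:**
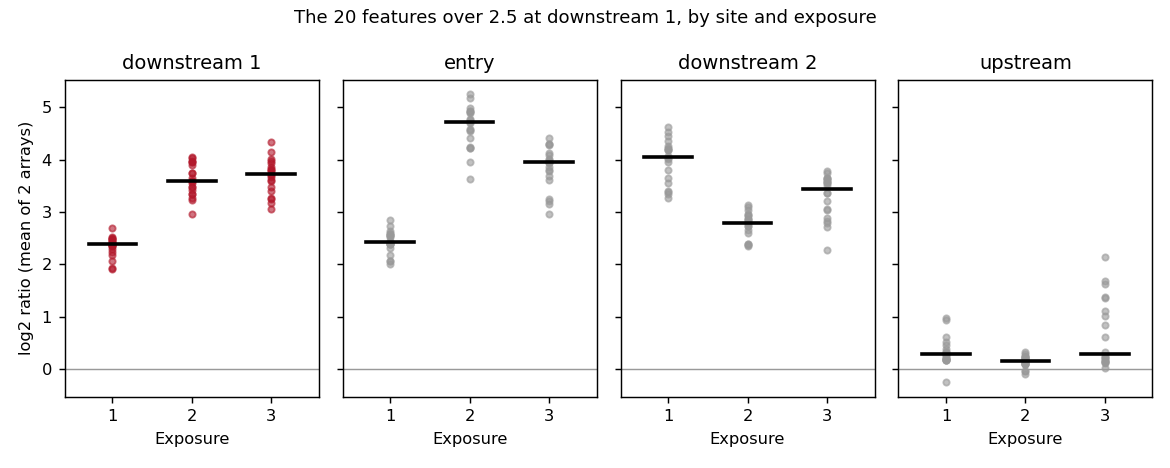
Log2 ratio against control (y axis, mean of the dye-swap arrays) of the 20 features with downstream 1 means above 2.5 in each exposure (x axis), with a panel per site and downstream 1 on the left. Points are features and bars their medians; the downstream 1 median is 2.39 in exposure 1, 3.59 in exposure 2 and 3.73 in exposure 3, and all upstream medians are at or below 0.30.

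Called features were not spread evenly over the ID blocks, each of which holds 384 IDs. Of the features whose IDs begin with P, 185 of 4936 (3.75%) were called, 134 positive (2.71%) and 51 negative (1.03%). Of those that begin with A, 52 of 2452 (2.12%) were called, 24 positive (0.979%) and 28 negative (1.14%). Block A6 had the highest share, with 27 of 380 features (7.11%), 6 positive and 21 negative. Block A5 had 0 of 364, and A7 had 0.267% called. Among the P blocks the share ran from 1.06% in P7 to 5.74% in P10, and P3 and P5 had 13 and 14 positive features with 0 negative ones. What the blocks stand for was not given.

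The 21 negative features of block A6 ranged from -1.95 to -0.29 at downstream 1, with a median of -1.17. Their median was -1.43 at entry, -1.13 at downstream 2 and 0.03 at upstream. Over the 9 exposures of the other sites they correlated pairwise at a median r of 0.846, close to 0.838 for the other 58 negative features. Site means were left in here too, so both r values hold the gap between upstream and the other waters. They cannot tell whether the A6 group is otherwise like the rest of the negative features.

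**Figure D4:**
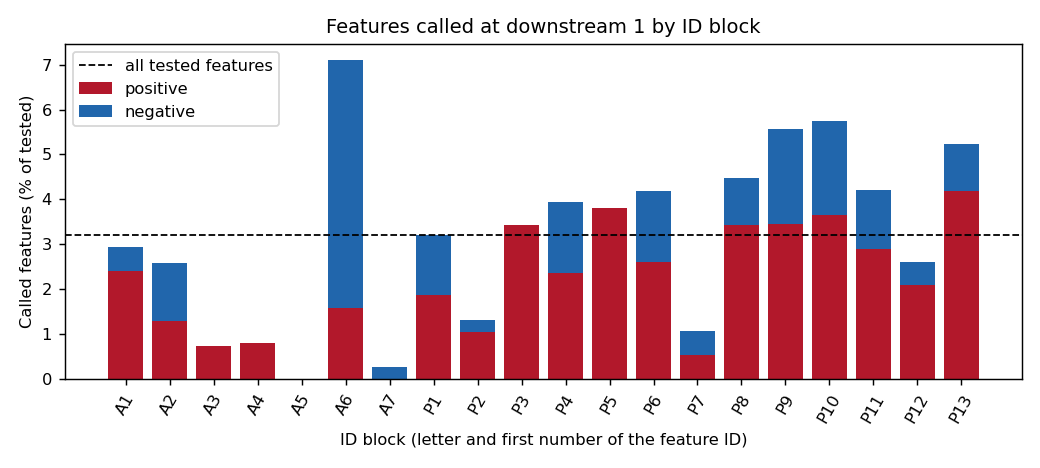
Share of tested features called against control in downstream 1 water (y axis, percent) in each of the 20 ID blocks (x axis), with positive and negative calls stacked in separate colours and the share over all tested features, 3.21%, as a dashed line. Block A6 has the highest share, 7.11%, mostly negative, and A5 has 0%.

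The 3 exposures to downstream 1 water also differed from each other. An F test of the exposure means against the spread between dye-swap arrays called 1033 of 6373 features (16.2%) at an adjusted p of 0.05 (limma). This spread is technical, since dye-swap arrays share their animals, so the test compares these 3 pools. Exposure 1 stood farthest from the other two in 511 of the called features, exposure 2 in 319 and exposure 3 in 203. The median range over exposures was 0.93 in the called features, against 0.27 in all features tested. Of the 220 features called against control that had 6 arrays, 61 (27.7%) also differed between exposures. In the class above 2.5 this was 13 of 20, among the other positive features 20 of 128 and among the negative features 28 of 72. Without exposure 1, 2 or 3, the count of features that differed between exposures was 388, 629 and 851.

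The strongest differences changed sign between exposures. P5CA10 had -1.05 and -1.11 in exposure 1, 1.55 and 1.36 in exposure 2, and 2.43 and 1.84 in exposure 3 (adjusted p = 3.8e-06 between exposures, limma). Both arrays of exposure 1 were below 0 and the other 4 above 0, and the mean of P5CA10 was not called against control (adjusted p = 0.79). P3DG10 had -0.94 and -1.16, then 1.46 and 1.51, then 2.38 and 1.98 (adjusted p = 4.4e-06 between exposures and 0.78 against control, limma). The sign of both features also varied within the other sites. P5CA10 stood at -0.58, 2.15 and 2.69 at entry, at 1.83, -1.56 and 1.79 at downstream 2, and at -0.95, -1.67 and -0.14 at upstream. P3DG10 followed it with r = 0.999 over the 12 exposures. In all, 155 features that differed between exposures had exposures beyond 0.5 on both sides of 0, so their mean over exposures averages values of opposite sign.

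A second pattern concerned features that were lowest in exposure 1. With bounds set after the values were seen, 21 of the 1033 features lay under -2 in exposure 1 while the mean of exposures 2 and 3 lay above -1. Their median was -2.40 in exposure 1 (-3.34 to -2.01), -1.29 in exposure 2 (-1.47 to 2.27) and 0.06 in exposure 3 (-0.38 to 2.11). All 21 had IDs that begin with P, in 12 blocks, and 0 of them were called against control. Of the 7388 features tested against control, 4936 had IDs that begin with P and 3.21% were called. The bounds choose a wide gap between exposures, which makes a call against control less likely, so these counts only describe the choice. Over the 9 exposures of the other sites their pairs had a median r of 0.991, with a lowest of -0.26.

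**Figure D5:**
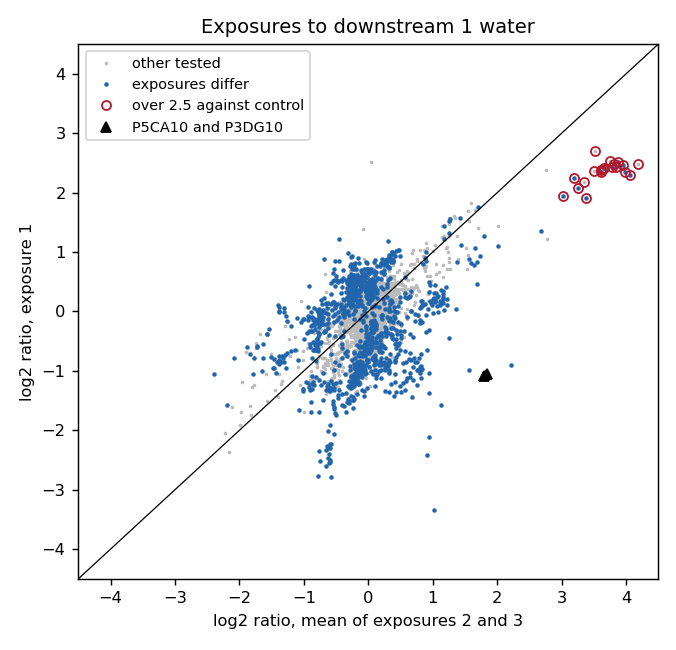
Log2 ratio in exposure 1 (y axis) against the mean log2 ratio of exposures 2 and 3 (x axis) in downstream 1 water, one point per feature with all 6 arrays. Blue points are the 1033 features that differed between exposures, grey points the other tested features, red circles the 20 features above 2.5 and triangles P5CA10 and P3DG10; the red circles lie below the diagonal of equal values.

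The dye itself moved many features. The dye half-difference is the exposed-in-Cy5 value minus the exposed-in-Cy3 value, divided by 2. It differed from 0 over the 3 exposures in 1922 of 6691 features (28.7%), 1077 positive and 845 negative (adjusted p of 0.05, limma). Its median size was 0.25 in these features and 0.13 in all tested. In 51.1% of tested features the half-difference was larger than the ratio of exposed to control itself. With no effect of dye or exposure, either would be equally likely to be the larger, so this share does not measure the dye effect. The 3 exposures' half-differences correlated at r = 0.571 to 0.610 across features. Averaging one array of each orientation takes an additive dye effect out of the exposure mean, but not where 1 of the arrays lacks a value. The balance of positive and negative dye effects depended on the setting. Positive ones stayed in the majority with arrays scaled to equal spread (1098 against 983), without exposure 2 (593 against 504) and without exposure 3 (685 against 514). They were the minority when downstream 1 was fitted alone (905 against 945) and without exposure 1 (334 against 367).

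P4CB5, P11CH10, P11CC4 and P13DA2 had dye half-differences smaller in size than their means. The widest was that of P13DA2, 0.64 beside a mean of -2.16. The half-difference was 0.25 ± 0.11 for P4CB5 (adjusted p = 0.57), 0.11 ± 0.07 for P11CH10 (0.23), 0.25 ± 0.08 for P11CC4 (0.011) and 0.64 ± 0.13 for P13DA2 (0.012) (SD, n = 3, limma). The clearest dye effects were in features that were not called in downstream 1 water. P4BD3 had a half-difference of 0.41 ± 0.01 and A7H15 one of -0.59 ± 0.11 (SD, n = 3; adjusted p = 0.0014 each, limma). Their mean ratios against control were 0.06 and 0.07 (adjusted p = 0.84 each).

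Set against upstream water, 48 of 7388 features (0.65%) differed at downstream 1, 23 positive and 25 negative, with 588 at an unadjusted p under 0.05 (limma). Their median size was 1.40 and the smallest 0.75. The test was unpaired, though in deviations from site means exposures 1, 2 and 3 correlated best with upstream exposures 2, 1 and 3 (r = 0.478, 0.367 and 0.405). P9CF4 had 2.43, 3.75 and 3.82 at downstream 1, against 0.30, -0.03 and 0.16 at upstream, a difference of 3.19 (SE 0.55, adjusted p = 0.037, limma). P8CB10 had 2.49, 3.65 and 3.98 at downstream 1, against 0.17, 0.26 and 0.15 at upstream, a difference of 3.18 (SE 0.55, adjusted p = 0.037, limma). For both features no exposure of one site overlapped the other site. P11CC4 differed by -2.40 (SE 0.19, adjusted p = 0.00036, limma). P13CD12 had -1.57, -2.23 and -2.14 at downstream 1, against 0.29, 0.81 and -0.27 at upstream, a difference of -2.26 (SE 0.39, adjusted p = 0.037, limma).

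The count of differences from upstream rested on single exposures. It was 45, 9 and 13 without downstream 1 exposure 1, 2 or 3, and 10, 9 and 25 without upstream exposure 1, 2 or 3. Leaving out exposure 1, 2 or 3 of downstream 2 gave 15, 29 and 25, and leaving out exposure 3 of entry gave 29, since all sites share the estimate of spread. With arrays scaled to equal spread it was 9, all positive. P9CF4, P8CB10 and P13CD12 lost their calls in 12, 12 and 13 of the settings tried, the leaving out of single exposures among them.

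The called features had medians near 0 at upstream and away from 0 in the other waters, though the comparisons share control medium and cannot be counted as separate evidence. The 158 features positive at downstream 1 had a median of 0.88 there, 0.80 at entry, 0.75 at downstream 2 and 0.11 at upstream. The 79 negative features had a median of -1.08 at downstream 1, -1.26 at entry, -1.13 at downstream 2 and 0.00 at upstream. Over all features tested the downstream 1 median was 0.02. The features were chosen at downstream 1, so its own medians are drawn away from 0 by that choice.

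No feature passed the test between downstream 1 and entry, 0 of 7388 (0%), with 41 at an unadjusted p under 0.05 and a lowest adjusted p of 1 (limma). The largest difference was 1.69 in size. The feature with the lowest p on the positive side was P11AF9, with -0.82, -1.07 and -1.07 at downstream 1, against -1.78, -1.90 and -1.63 at entry. Its difference was 0.78, with an unadjusted 95% interval of 0.38 to 1.18. On the negative side it was A6E16, with a difference of -0.30 (-0.51 to -0.09). Exposure numbers paired the deviations of these sites, and a fit of both sites alone with the number as a block, chosen after seeing the data, also called 0 features, with 343 at an unadjusted p under 0.05 and a lowest adjusted p of 0.95 (limma). Unpaired intervals lay wholly within 0.5 of 0 for 46.9% of features and within 1 for 78.2%, and paired ones for 62.9% and 89.2%, and for the rest the data allow larger differences.

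Between downstream 1 and downstream 2, 0 of 7388 features (0%) passed, with 262 at an unadjusted p under 0.05 (limma). The largest difference was 2.21 in size. P9BF6 had 0.18, 0.11 and 0.07 at downstream 1, against -0.33, -0.42 and -0.19 at downstream 2, a difference of 0.43 (0.21 to 0.65). A5I11 had -0.18, -0.23 and -0.58 at downstream 1, against 1.41, 1.38 and 1.14 at downstream 2, a difference of -1.64 (-2.32 to -0.96). Neither feature's exposure values overlapped between the sites, and neither passed the adjusted test. For both, downstream 1 exposure 3 rests on the exposed-in-Cy3 array alone, which leaves a dye effect in it, and dye-swap arrays differed widely (A5I11 had 0.85 and -1.31 in exposure 2). Intervals lay within 0.5 of 0 for 45.4% of features and within 1 for 76.1%.

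Against the mean of entry and downstream 2, 0 of 7388 features (0%) passed, with 121 at an unadjusted p under 0.05 (limma). The largest difference was 1.26 in size. P9CH3 differed by 0.31 (0.11 to 0.52), with 1.03, 0.97 and 0.75 at downstream 1. P10DB9 differed by -0.63 (-0.98 to -0.28), with 0.31, 0.10 and 0.01 at downstream 1, against 0.83, 0.48 and 0.45 at entry and 1.39, 0.71 and 0.77 at downstream 2. Intervals, unpaired here too, lay within 0.5 of 0 for 54.5% of features and within 1 for 82.0%. In the comparison with control the corresponding shares were 58.0% and 82.7%, with a median interval half-width of 0.30.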

How the data were processed

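Per the labels, RNA from pooled animals was extracted with Trizol, made into aminoallyl cDNA that was labelled with Cy3 or Cy5 for 2-colour arrays. The authors deposited 1 log ratio per feature and array, treated here as log2; background correction, normalization and log base were not given in the sources used here. Arrays were centred on their medians and the 2 dye-swap arrays of each exposure averaged. Of 7680 features, 7388 with values in at least 2 exposures at every site were tested with limma 3.58.1 in R 4.3.3 (lmFit and eBayes over 12 exposures, 8 residual and 1.79 prior degrees of freedom), with Benjamini-Hochberg adjustment at 0.05. The same code was tested on simulated data. Features named are the 2 largest called in each direction whose exposures share a sign (between sites, do not overlap); where none was called, the lowest p in each direction; for exposures and dye, the 2 lowest p. A6E16 against control, the classes bounded at 2.5, -2 and -1, and blocks A5, A6, A7, P3, P5, P7 and P10 were chosen after their values were seen. The arrays and lists were chosen with earlier results of these data known.

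Exposure numbers were checked for pairing by correlating same-numbered deviations from site means. With entry, r was 0.525, 0.518 and 0.404 in exposures 1 to 3, so those numbers pair the samples, by the data and not by the labels. Figures were drawn with matplotlib 3.10.9.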

Additional observations from a re-analysis of the deposited data

Results flagged for a closer look

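The effect of site water against the laboratory control differed between downstream 1 and upstream in 48 features, by a test of the difference itself (limma). The named features among them had differences of 3.19 for P9CF4, 3.18 for P8CB10, -2.40 for P11CC4 and -2.26 for P13CD12, downstream 1 minus upstream. P11CC4 was called in each setting tried but the scaling of arrays to equal spread (-2.39, adjusted p = 0.11, limma). P9CF4, P8CB10 and P13CD12 were lost in 12, 12 and 13 settings.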

How the results depend on the processing

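No named feature changed sign in any setting run, and 271 values of single features stayed on their side of the threshold while 50 lost their call. Features named as called had exposures of one sign or, between sites, without overlap. Leaving out an exposure could therefore not reverse them, so their kept sign in those settings is no test. The 271 include features named against entry, downstream 2 and their mean, which were never called and had no call to lose. Against upstream, P9CF4, P8CB10 and P13CD12 kept their call in 11, 11 and 10 settings and lost it in 12, 12 and 13. Against control, P13DA2 kept it in 16 and lost it in 7, and P11CC4 kept it in 23 and lost it in 0. The 237 calls against control became 152 with arrays scaled to equal spread, 9 with downstream 1 fitted alone and 653 with array weights. They became 360 on exposed-in-Cy5 arrays alone and 1217 on exposed-in-Cy3 arrays alone. A fit of all 24 arrays, with a dye term and each exposure as a random block (correlation of its arrays 0.509), gave 477. Leaving out 1 exposure gave 79 to 228 calls against control. The share of positive calls was 66.7%, against 11.1% with downstream 1 fitted alone, 74.7% on exposed-in-Cy5 arrays and 50.5% with all 24 arrays. The 48 differences from upstream became 9 with scaling (100% positive, against 47.9%), 16 with both sites alone, 28 with array weights, 26 on exposed-in-Cy5 arrays (65.4% positive) and 194 with all 24 arrays; leaving out 1 exposure gave 9 to 46. With a replicate block for the exposure number the counts were 238 against control (174 positive and 64 negative, 198 calls shared) and 60 against upstream. Differences from entry, downstream 2 and their mean stayed at 0 calls in every setting run; for the pairing with entry, both sites alone with the replicate block gave 0 calls and 343 at an unadjusted p under 0.05 (limma). Same-numbered exposures correlated at -0.144, -0.433 and 0.405 with upstream and at -0.191, -0.310 and 0.497 with downstream 2, so the numbers do not pair downstream 1 with these sites. Its exposures 1, 2 and 3 correlated best with numbers 2, 1 and 3 at both upstream and downstream 2 (r from 0.367 to 0.497), so the block by number does not remove that shared deviation. Leaving out 1 exposure gave 701 to 1199 dye effects and 388 to 851 differences between exposures. The cause of these changes was not tested. Spot intensities were not used here, so the part of weak signal in any value is unknown.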
